A study of Mus musculus with 24 samples.

Results

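In circadian time, the comparison covers the 4 h around projected dawn in the mouse adrenal gland. It sets circadian time 22 (CT22), in the last hours of the projected night, against circadian time 2 (CT2), in the first hours of the projected day. Circadian time counts hours from the moment at which lights would have come on. All groups were whole adrenal glands of male C57B/6J mice aged 3 months, labelled wild type, that had spent 2 weeks in cycles of 12 h of light and 12 h of darkness and were then kept in constant darkness. CT22 was sampled 58 h and 82 h after lights off and CT2 38 h and 62 h after lights off. Each time point had an unlettered and a lettered array, so that 8 of the 24 arrays of the series belong to the comparison, 4 per circadian time. Only 58 h and 62 h flank the same dawn. The 38 h arrays came before the 58 h arrays, and the 62 h arrays before the 82 h arrays. Time in constant darkness thus differs between the groups, and its part cannot be told apart from that of circadian time. Across dawn is used below for CT2 against CT22. Total RNA had been labelled with biotin and hybridised to Affymetrix mouse arrays, which give a signal for each probe set, a group of short probes for one transcript.

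At each of the 2 circadian times, the lettered arrays of both cycles held almost the same values: the SD of their log2 ratio was 0.0416 at most, against 0.23 to 0.326 in the 10 other pairs of arrays of one of these times. This is less than the noise that separates other arrays, so each such pair was averaged and counted as 1 sample. This left 3 profiles per circadian time: 38 h, 62 h and the lettered mean for CT2, and 58 h, 82 h and the lettered mean for CT22. Whether each array stands for its own animal or animals is not in the labels, and p-values reflect only a spread among profiles, which may be technical. That spread was shared over the 12 profiles of the fit, which include profiles of other circadian times. Arrays give no read depth, and the number of profiles limits the precision.

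The adrenal gland holds a steroid-producing cortex around a medulla of chromaffin cells that make catecholamines. Its cells run a circadian clock in which BMAL1 and CLOCK switch on the Per and Cry genes, whose proteins switch BMAL1 and CLOCK off again, while the REV-ERB receptors repress Arntl, the gene of BMAL1. In nocturnal rodents the release of corticosterone, the main glucocorticoid, is high around the onset of activity and low in the morning, and its synthesis starts from cholesterol, which cortical cells take up from lipoproteins or make themselves.

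The markers chosen for each tissue showed adrenal gland with some surrounding tissue. The summed signal of 8 cortex markers was 82680 to 85000 at CT22 and 81250 to 83570 at CT2, an overlap, and that of 7 medulla markers 43060 to 45960 and 40770 to 43010. One profile stood apart in fat: the summed signal of 8 fat cell markers was 52280 at 82 h, 24680 at 58 h and 29140 to 34320 in the 4 others, and Ucp1, the marker of brown fat, read 9297 at 82 h against 516 to 2366 elsewhere. Fibroblast markers, 8 in all, summed to 21600 at 82 h, 11500 at 58 h and 16080 to 19580 elsewhere. The 58 h profile was also the lowest in the 10 macrophage markers (14420, against 16620 to 21460) and the 10 endothelium markers (15290, against 16760 to 18640). Counts without the 82 h and without the 58 h profile are given with the calls, and the part of these tissues in single results was not tested. Alb, a liver gene, read 1199 at 62 h and at most 185 elsewhere. Skeletal muscle markers, 10 in all, summed to 1508 at most. Gapdh probe sets at the 5′ and 3′ ends of the transcript gave ratios of 1.03 to 1.13 on all 8 arrays, whose median signals were 249.6 to 263.6.

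Across dawn, cholesterol synthesis was the gene list with the most calls, all of them lower at CT2. Of the 17 enzymes tested, 8 fell, among them Cyp51, Idi1, Sqle and Hsd17b7. On its brightest probe set, each of these fell to between 0.504 and 0.521 of its CT22 level. Cry1, the clock repressor, fell to 0.465 of its CT22 level, and Pnmt, the last enzyme of adrenaline synthesis, to 0.579. Cxcr4, a chemokine receptor, rose 2.17-fold, Myo1a, a brush border myosin, 1.97-fold, and Npr3, the clearance receptor for natriuretic peptides, 1.87-fold. In whole glands, fewer cells of a type and less RNA per cell cannot be told apart. The median difference over the 13880 genes tested was 0.00262 on the log2 scale.

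In all, 17 genes were higher and 16 lower at CT2, 33 together (limma, Benjamini-Hochberg adjusted p under 0.05, on log2(signal + 51), a scale that understates the change of dim genes). Centring the arrays on the median gave 72 higher and 23 lower, quantile normalization 39 and 19, and a fit of only the 6 profiles compared 0 and 0 (2081 genes at an unadjusted p under 0.05). The 17 and 16 are 0.122% and 0.115% of the genes tested, 0.238% together. At an unadjusted p under 0.05 there were 1289 higher and 871 lower genes, 9.29% and 6.28%. In 12.4% of genes every CT2 profile lay above every CT22 profile, and in 9.52% every one lay below. All 33 called genes were among these, and in 11 of the 16 that fell and 6 of the 17 that rose the ratio was at least 1.5.

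**Figure D1:**
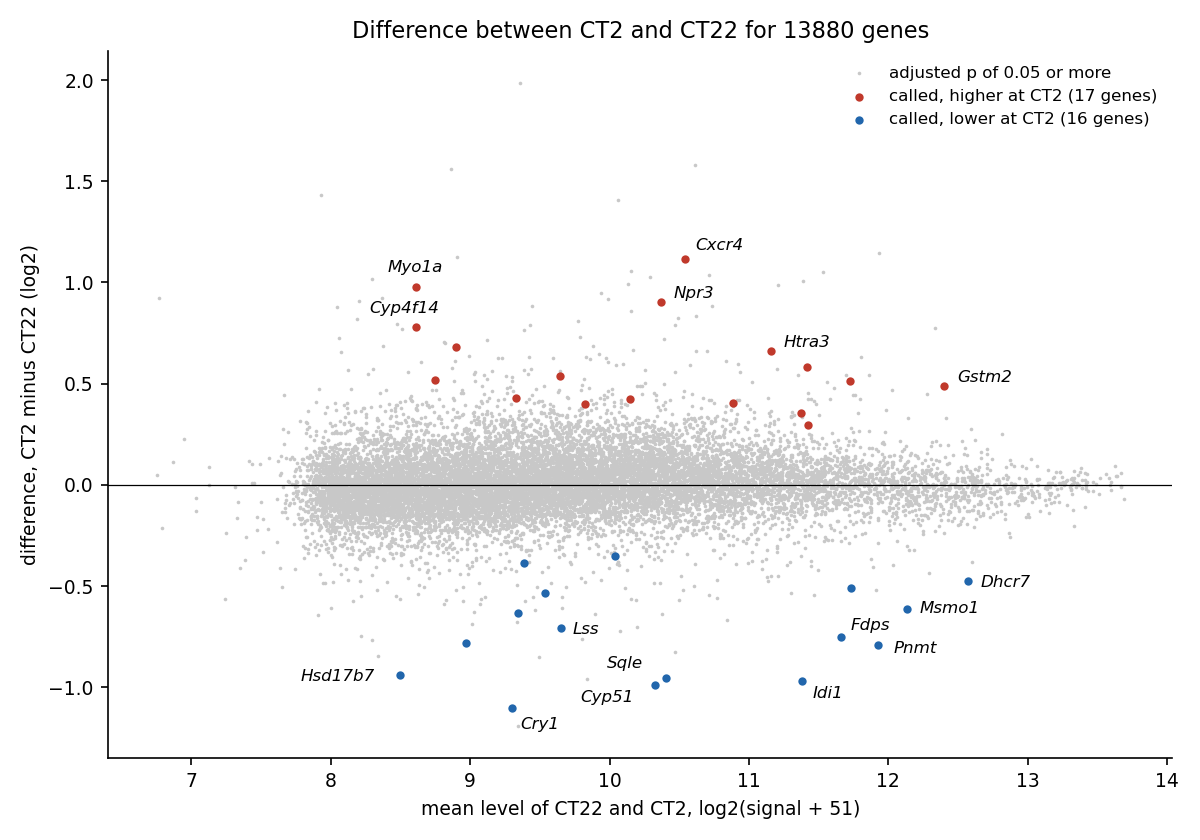
Difference between CT2 and CT22 on the log2 scale (y axis) against the mean level of both times (x axis, log2(signal + 51)) for 13880 genes, one point per gene. The 16 genes that fell (blue) include Cry1 and 8 enzymes of cholesterol synthesis, the 17 that rose (red) include Cxcr4, Myo1a and Npr3, and several grey points that did not pass lie farther from 0 than called genes.

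The calls leaned on single profiles. With the 38 h or the 62 h profile of CT2 left out, 0 genes passed (1536 and 1568 at an unadjusted p under 0.05), 4 passed without the lettered mean of CT2 and 3 without the 58 h profile of CT22. Without the 82 h profile of CT22, by contrast, 92 genes passed, and without the lettered mean of CT22, 219 did. The median size of the 33 differences was 0.739 in the first cycle (38 h minus 58 h) and 0.65 in the second (62 h minus 82 h). It was 0.442 in the lettered arrays and 0.815 for 62 h minus 58 h, the pair that flanks the same dawn. These values went into the calls, and because the profiles of all 33 genes do not overlap, leaving out 1 profile or taking 1 cycle could not turn a direction.

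Among genes of the core clock loop, Cry1 was the single one of 18 tested that passed (0.238% of all genes did). Cry1 encodes a cryptochrome, which represses BMAL1 and CLOCK. At CT22 it read 1017 at 58 h, 868 at 82 h and 759 in the lettered mean, and at CT2 it read 372 at 38 h, 345 at 62 h and 427 in the lettered mean. The lowest CT22 value was thus well above the highest CT2 value. The difference was -1.10 ± 0.11 on the log2 scale (SE, n = 3 profiles per time; limma, adjusted p = 0.00791). The adjusted p was 0.0691 without the 38 h profile and 0.0847 without the 62 h profile.

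The base pairs before the Cry1 start site are shown here because its E-box (CACGTG, in capitals), the motif that BMAL1 and CLOCK bind, lies close to the start. The window is that of RefSeq on GRCm38.p6, chr10:85185055-85185304, minus strand, the 250 bases upstream of the transcription start, 5′ to 3′, and the motif begins 60 bases before the start. The window of Hsd17b7, chr1:169969206-169969455, minus strand, is an example from cholesterol synthesis, with an E-box that begins 143 bases before the start.
Cry1: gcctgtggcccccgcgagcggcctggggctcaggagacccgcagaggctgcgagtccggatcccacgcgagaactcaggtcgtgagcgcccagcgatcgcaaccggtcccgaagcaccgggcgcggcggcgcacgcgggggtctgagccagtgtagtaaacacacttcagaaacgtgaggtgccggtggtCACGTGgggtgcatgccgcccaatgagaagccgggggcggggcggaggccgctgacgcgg
Hsd17b7: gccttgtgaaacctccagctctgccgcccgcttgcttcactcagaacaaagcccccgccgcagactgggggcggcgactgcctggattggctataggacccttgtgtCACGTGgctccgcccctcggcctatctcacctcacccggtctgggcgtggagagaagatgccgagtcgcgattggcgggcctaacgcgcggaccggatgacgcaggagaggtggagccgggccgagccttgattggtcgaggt
RefSeq windows were matched by gene for 11076 of the 13880 genes tested, with a motif counted if any window of the gene held it and both strands searched. An E-box was found in 3 of the 12 genes with a window that fell (Cry1, Dhcr7 and Hsd17b7) and in 2 of the 14 that rose (Slc25a13 and Slc49a4), against 9.43% of all genes with a window. A ROR element (TAGGTCA or TGGGTCA), the motif that REV-ERB and ROR receptors share, was found in 2 of the 12 (4930533K18Rik and Dhcr7) and 0 of the 14, against 5.58% of all. A D-box (TTATGNAA) was found in 0 of the 12 and 1 of the 14 (Cyp4f14), against 2.34%. With so few genes these shares are descriptions.

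The other clock genes did not pass, with 3 more of the 18 below in every profile and 3 above (background 9.52% and 12.4%). Cry2, the second cryptochrome, read 499, 615 and 508 at CT22 and 409, 360 and 329 at CT2 (58 h, 82 h and lettered mean, then 38 h, 62 h and lettered mean, the order used from here on). Its difference of -0.50 ± 0.10 had an adjusted p of 0.0663 (limma), so it missed the threshold although the profiles did not overlap. It passed with arrays centred on the median (adjusted p = 0.0454) and without the lettered mean of CT22 (adjusted p = 0.0456). These settings called 95 and 219 genes, against 33 in the main fit. Per2, a period gene, read 813, 570 and 477 at CT22 and 409, 355 and 313 at CT2, a difference of -0.69 ± 0.22 (adjusted p = 0.186). Arntl read 2173, 1954 and 1920 against 1684, 1565 and 1805, lower in every profile (-0.25 ± 0.21, adjusted p = 0.593). Its SD on the log2 scale was 0.0941 at CT22 and 0.1 at CT2, but 0.228 at CT6 and 0.559 at CT14. All of these times share the estimate of the spread. Its means of 11.01 at CT22 and 10.76 at CT2 were both far above that of 8.80 at CT6 (log2(signal + 51)).

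The REV-ERB genes lay in the other direction. Nr1d1 read 104, 201 and 226 at CT22 and 320, 397 and 488 at CT2, so every CT2 profile was higher, with a difference of 1.02 ± 0.25 (limma, adjusted p = 0.102). Nr1d2 read 339, 463 and 675 against 899, 947 and 741, a difference of 0.79 ± 0.18 (adjusted p = 0.0904). Both thus missed the threshold with profiles that did not overlap, and Nr1d2 passed without the lettered mean of CT22 (1.02, adjusted p = 0.0138). Csnk1e, a kinase of the period proteins, was also above in every profile, with 853, 833 and 1076 against 1113, 1148 and 1141 (0.30 ± 0.10, adjusted p = 0.184). It passed without the lettered mean of CT22 (0.407, adjusted p = 0.0395). That setting called 219 genes in all, against 33 in the main fit.

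In the remaining clock genes the profiles of both times overlapped. Per1 ranged from 309 to 670 at CT22 and from 342 to 617 at CT2, with a difference of 0.03 ± 0.29 (limma, adjusted p = 0.97), so a difference in either direction could not be told from this spread. Clock differed by -0.03 ± 0.07 on its brightest probe set and by 0.34 ± 0.10 and 0.13 ± 0.10 on its other probe sets (adjusted p = 0.16 and 0.517 over all probe sets), so its direction depends on the probe set. Npas2 differed by 0.04 ± 0.10, Per3 by -0.02 ± 0.09, Rora by -0.01 ± 0.09 and Rorb by -0.09 ± 0.10. Bhlhe40, an accessory repressor, differed by -0.18 ± 0.24, and its value of 1603 at 82 h stood above the other 5, which lay between 687 and 936. Bhlhe41 and Ciart, further repressors, differed by -0.07 ± 0.07 and -0.11 ± 0.11, the kinase gene Csnk1d by -0.13 ± 0.09 and Timeless by -0.01 ± 0.08. The lowest adjusted p of these 11 genes was 0.492, for Csnk1d. Per3, Rora and Csnk1d had 3, 7 and 4 other tested probe sets, so the values given hold for their brightest probe sets alone.

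**Figure D2:**
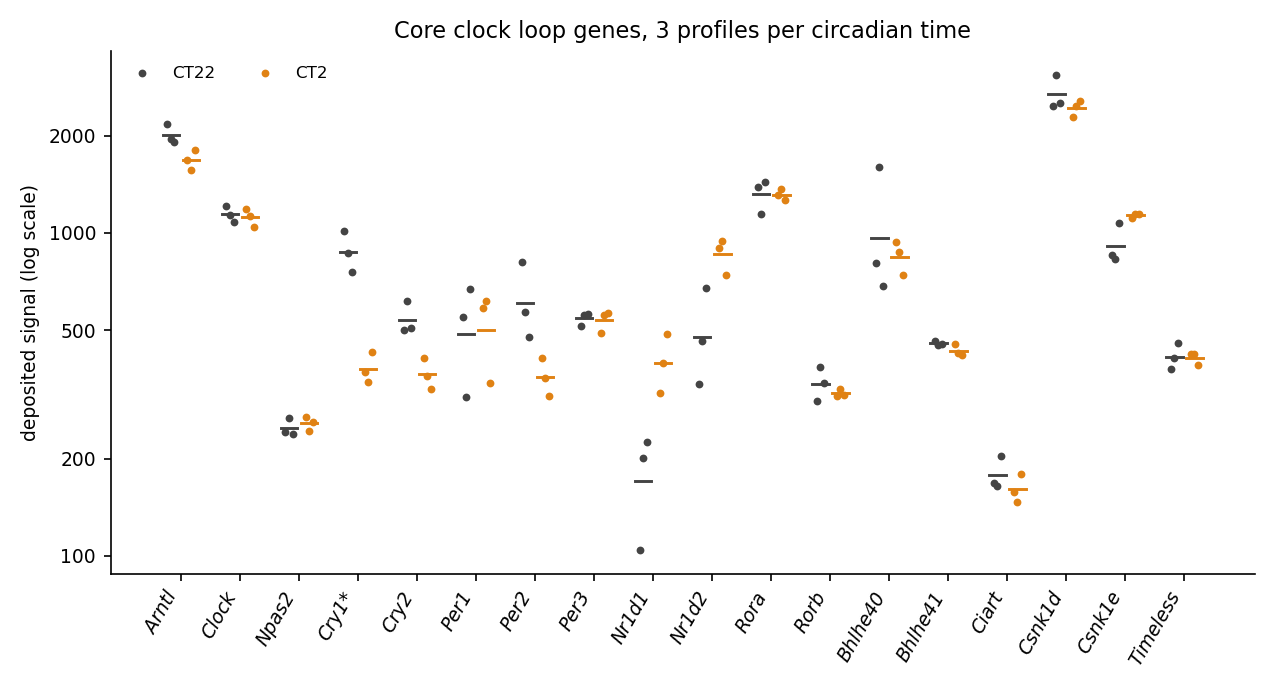
Deposited signal (y axis, log scale) of the 18 clock loop genes tested at CT22 (dark) and CT2 (orange); points are the 3 profiles, bars their mean on the log2(signal + 51) scale, and an asterisk marks an adjusted p under 0.05. Cry1 is the one marked gene, with CT22 values of 759 to 1017 and CT2 values of 345 to 427, while Nr1d1 and Nr1d2 lie higher at CT2 without passing.

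Of 19 clock output genes, 0 passed, where 0.238% of all genes did, so 0 calls in so short a list says little. At an unadjusted p under 0.05, 2 were higher and 4 lower, against 9.29% and 6.28% of all genes. In 6 every CT2 profile lay below every CT22 profile and in 0 every one lay above (background 9.52% and 12.4%). Dbp, the D-box activator, read 233, 367 and 640 at CT22 and 684, 766 and 553 at CT2, and its difference of 0.71 ± 0.32 (limma, adjusted p = 0.314) came from the 58 h and 82 h profiles, since the lettered means lay the other way round. Nfil3, the D-box repressor, read 698, 702 and 478 against 474, 398 and 349, a difference of -0.55 ± 0.22 (adjusted p = 0.254) with no overlap. Tef, another D-box activator, differed by -0.25 ± 0.10 (adjusted p = 0.274).

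Cholesterol synthesis runs from acetyl units to mevalonate, from there to squalene, and by cyclisation and trimming of lanosterol to cholesterol, and its genes are known targets of the SREBP transcription factors, which are active when sterols in the cell are low. Of the 17 enzymes tested, 8 fell and 0 rose (47.1%, against 0.115% lower among all genes). The differences of 16 lay below 0, with a median of -0.50, and in 13 every CT2 profile lay below every CT22 profile, against 9.52% of all genes. The count of 8 became 0 without any 1 of the 3 CT2 profiles, 1 without the 58 h profile, 8 without the 82 h profile and 10 without the lettered mean of CT22. The list was drawn up with earlier results of these data known, so its count is a description.

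In the steps up to mevalonate and its phosphates no enzyme passed. Hmgcs1, the synthase before the mevalonate-forming step, read 4181, 4159 and 3450 at CT22 and 3382, 3304 and 3238 at CT2, lower in every profile by a small difference (-0.24 ± 0.07; limma, adjusted p = 0.162). The kinases Mvk and Pmvk differed by -0.17 ± 0.08 and -0.23 ± 0.20, and the decarboxylase Mvd by -0.16 ± 0.10.

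From the isoprenoid units to squalene and its cyclisation, 4 of 5 enzymes fell. Idi1, the isopentenyl diphosphate isomerase, read 4169, 3471 and 3440 at CT22 and 2035, 1720 and 1822 at CT2, a difference of -0.97 ± 0.12 (limma, adjusted p = 0.0184). Fdps, farnesyl diphosphate synthase, read 4857, 4008 and 3640 against 2548, 2493 and 2286 (-0.75 ± 0.11, adjusted p = 0.0211). In both, the lowest CT22 profile was far above the highest CT2 profile. Sqle, squalene epoxidase, read 2283, 1826 and 1473 at CT22, with wide spacing, and 902, 955 and 907 at CT2, close together (-0.95 ± 0.12, adjusted p = 0.0184). Lss, lanosterol synthase, read 1065, 903 and 962 against 594, 540 and 601 (-0.71 ± 0.11, adjusted p = 0.024). Fdft1, squalene synthase, did not pass: its 1783, 2209 and 1281 at CT22 were spread more than those of its neighbours and its 1195, 1040 and 1187 at CT2 reached close to the lowest of them (-0.57 ± 0.16, adjusted p = 0.139).

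Among the enzymes that turn lanosterol into cholesterol, 4 of 8 fell. Cyp51, lanosterol demethylase, read 2146, 1614 and 1579 at CT22 and 904, 774 and 917 at CT2 (-0.99 ± 0.14; limma, adjusted p = 0.0211). Hsd17b7, a sterol ketone reductase, read 559, 439 and 371 against 201, 198 and 233 (-0.94 ± 0.14, adjusted p = 0.024). On the brightest probe sets these were the steepest drops of the sterol steps, but the 3 other probe sets of Hsd17b7 gave smaller drops (below). Msmo1, a methyl sterol oxidase, read 6699, 5321 and 4709 against 3591, 3508 and 3662 (-0.61 ± 0.11, adjusted p = 0.0488). Dhcr7, the last reductase, which falls outside the rule for named genes and was chosen after its values were seen, read 7971, 7052 and 6476 against 4951, 5045 and 5388 (-0.47 ± 0.07, adjusted p = 0.0276). Each of the 8 enzymes that fell read highest at 58 h, the profile with the lowest sums of fat, fibroblast, macrophage and endothelium markers. So did all other genes that fell across dawn, except Pnmt, Spata18 and Gbf1. Nsdhl (-0.50 ± 0.13), Sc5d (-0.33 ± 0.11) and Tm7sf2 (-0.18 ± 0.12) had differences below 0 that did not pass, and Ebp, an isomerase between them, differed by 0.01 ± 0.06.

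**Figure D3:**
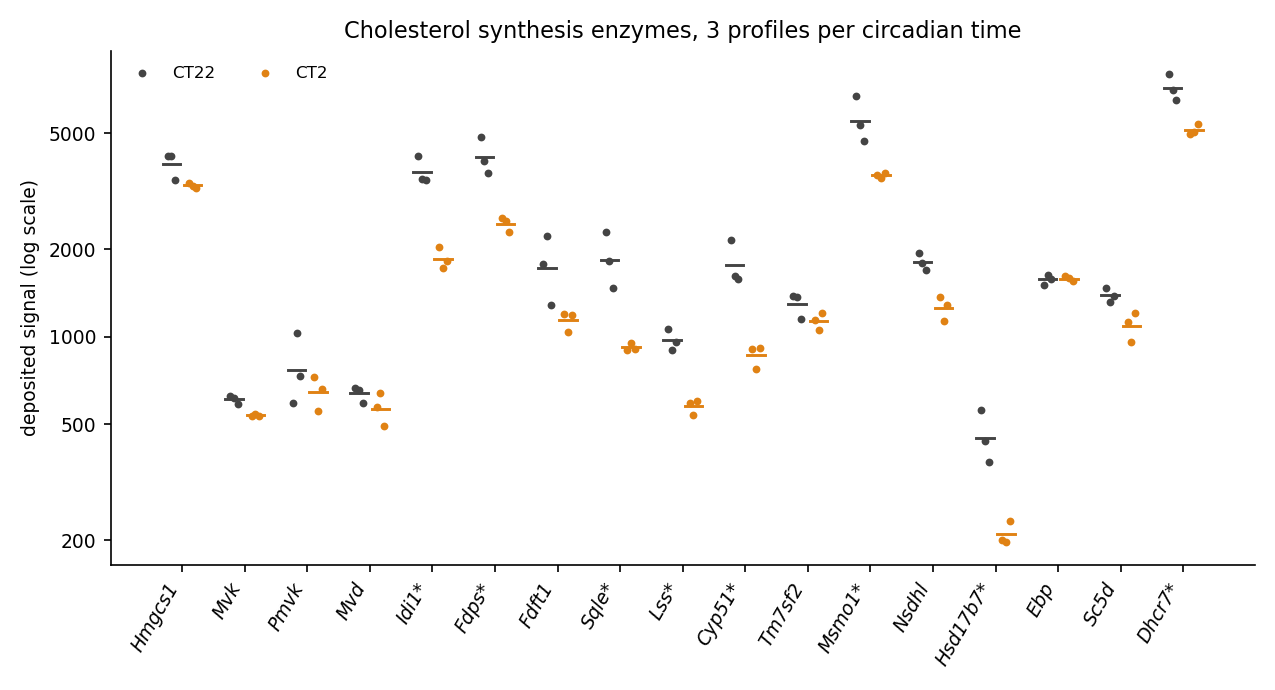
Deposited signal (y axis, log scale) of the 17 cholesterol synthesis enzymes tested, in the order of the pathway, at CT22 (dark) and CT2 (orange); points are the 3 profiles, bars their mean on the log2(signal + 51) scale, and an asterisk marks an adjusted p under 0.05. The 8 marked enzymes run from Idi1 to Dhcr7, and the 4 enzymes before Idi1 carry no mark.

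Of these 8 enzymes, Sqle and Fdps had no RefSeq window. Among the others, Msmo1 alone held the letters TCACNCCA in its window, and sterol regulatory elements with other letters were not searched. This motif (in capitals) is a sterol regulatory element, the type of site that SREBPs bind. It begins 177 bases before the start in the window chr8:64733579-64733828, minus strand, GRCm38.p6.
Msmo1: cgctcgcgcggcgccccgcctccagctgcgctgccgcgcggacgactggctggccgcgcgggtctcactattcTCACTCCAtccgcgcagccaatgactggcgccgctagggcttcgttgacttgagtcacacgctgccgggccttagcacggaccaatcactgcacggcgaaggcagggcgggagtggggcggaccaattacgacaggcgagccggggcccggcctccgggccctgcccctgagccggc
This motif was added after the calls were seen. It was found in 2 of the 14 cholesterol synthesis genes with a window (Hmgcs1 and Msmo1), in 1 of the 12 genes that fell and in 3 of the 14 that rose (Gstm7, Htra3 and Txndc16), against 4.09% of all genes with a window.

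Genes of sterol control and uptake did not pass, 0 of 14 (0.238% of all genes passed). At an unadjusted p under 0.05, 1 was higher and 2 lower, against 9.29% and 6.28% of all genes. Srebf2, the SREBP most tied to cholesterol, read 1232, 1268 and 1185 at CT22 and 1121, 1260 and 973 at CT2 (-0.14 ± 0.10; limma, adjusted p = 0.505), and Insig1, which holds SREBPs back, differed by -0.21 ± 0.17 (adjusted p = 0.587). Scarb1, the lipoprotein receptor through which the mouse cortex takes up cholesterol esters, was lower in every profile, with 11430, 11050 and 10640 against 9703, 10050 and 8998 (-0.20 ± 0.07, adjusted p = 0.214). Abca1, a cholesterol exporter, was higher in every profile, with 3433, 3938 and 5441 against 6087, 5683 and 5465 (0.45 ± 0.13, adjusted p = 0.137). Neither difference passed, although the profiles of both genes did not overlap. Outside that list, Gramd1b, which carries cholesterol from the cell membrane to the endoplasmic reticulum, fell by 0.51 ± 0.09 (adjusted p = 0.0419), from 4584, 3743 and 3777 to 2726, 2705 and 2998; it was named after its values were seen.

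The enzymes that make steroids from cholesterol showed no call, 0 of 13 (0.238% of all genes were called). At an unadjusted p under 0.05, 0 were higher and 2 lower, against 9.29% and 6.28% of all genes. Star, which moves cholesterol into mitochondria, read 12730, 12420 and 12260 at CT22 and 12670, 12780 and 11380 at CT2 (-0.02 ± 0.04; limma, adjusted p = 0.802). Cyp11a1, which cuts the cholesterol side chain, differed by 0.04 ± 0.03 (adjusted p = 0.49; 0.374 on its other probe set, adjusted p = 0.36) and Cyp11b1, which makes corticosterone, by -0.03 ± 0.03 (adjusted p = 0.688). These probe sets are among the brightest on the array, and whether their signals were near saturation was not tested. Mc2r, the ACTH receptor, differed by -0.11 ± 0.08 (adjusted p = 0.495), and Nr5a1, the cortical factor SF-1, read 3235, 2387 and 2356 against 2237, 2168 and 2353, so that the 58 h profile carried most of its difference of -0.22 ± 0.14 (adjusted p = 0.466). Of 34 genes of the ACTH receptor and cAMP signalling, 0 passed, with 1 higher and 5 lower at an unadjusted p under 0.05.

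Pnmt was the one gene of 25 for catecholamine synthesis and chromaffin granules that passed (0.238% of all genes did). The enzyme methylates noradrenaline to adrenaline, and its gene is known to respond to glucocorticoids. It read 4709, 5565 and 4991 at CT22 and 3250, 3321 and 2295 at CT2, without overlap and lowest in the lettered mean (-0.79 ± 0.14; limma, adjusted p = 0.0485). This call sat at the edge of the threshold, with an adjusted p of 0.0405 to 0.161 when 1 profile was left out. A second probe set of Pnmt gave -0.65 ± 0.10 (adjusted p = 0.0281 over all probe sets).

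Pnmt moved apart from the other medulla markers. The summed signal of 6 other medulla markers (Th, Dbh, Chga, Chgb, Slc18a1 and Npy) was 38349 to 40396 at CT22 and 37515 to 40599 at CT2, overlapping. Of the 25 genes, 22 had differences above 0, against 50.8% of all genes. At an unadjusted p under 0.05 (limma), 5 were higher and 1 lower, against 9.29% and 6.28% of all genes. Slc6a2, the noradrenaline transporter, read 271, 520 and 685 against 820, 878 and 996 (0.88 ± 0.28; limma, adjusted p = 0.182), higher in every profile without passing. Th, the first enzyme of the route, read 5699, 6180 and 5613 against 4582, 5073 and 5186, lower in every profile without passing (-0.24 ± 0.11, adjusted p = 0.332).

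The remaining genes that fell have no shared list. Ybx2, a Y-box RNA-binding protein best known from germ cells, read 826, 686 and 768 at CT22 and 517, 447 and 448 at CT2 (-0.64 ± 0.10; limma, adjusted p = 0.0259). Rom1, a membrane protein of photoreceptor discs, read 890, 774 and 871 against 547, 579 and 575 (-0.53 ± 0.08, adjusted p = 0.0211). 4930533K18Rik, a RIKEN transcript, read 697, 606 and 528 against 321, 344 and 330 (-0.78 ± 0.13, adjusted p = 0.0346). Their groups did not overlap, which the rule for named genes asked for, so this is no added support. Spata18, a factor of mitochondrial quality control, and Gbf1, which activates Arf proteins at the Golgi, fell by 0.39 ± 0.07 and 0.35 ± 0.06 (adjusted p = 0.0427 and 0.0478); they were named after their values were seen.

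Among the genes that rose, Cxcr4 read 817, 878 and 1241 at CT22 and 2183, 2544 and 1787 at CT2 (1.12 ± 0.18; limma, adjusted p = 0.039). The CXCR4 receptor guides blood-forming and immune cells and is also made by many tissue cells. Myo1a read 196, 241 and 251 against 523, 550 and 431 (0.98 ± 0.13, adjusted p = 0.0184), and Npr3 read 684, 1010 and 1108 against 1851, 1708 and 1715 (0.90 ± 0.15, adjusted p = 0.0401). In these 3 genes the 58 h profile was the lowest of all, as it was in the fat, fibroblast, macrophage and endothelium markers. All other genes that rose also read lowest at 58 h, except Vnn1, Pbx3, Slc49a4 and Gstm7. The part of the tissues behind these markers in these results was not tested. Cyp4f14, a fatty acid hydroxylase, read 225, 258 and 260 at CT22 and 461, 459 and 460 at CT2 (0.78 ± 0.10, adjusted p = 0.0184), with nearly equal values at CT2. Lymphocytes also make Cxcr4, and their 8 markers summed to 3645 to 4188 at CT22 and 4843 to 5875 at CT2. Ighm alone made this higher sum, with 428, 1122 and 1270 against 3001, 2973 and 2106 (adjusted p = 0.0663). The 7 other markers summed to 3217, 3050 and 2918 at CT22 and 2751, 2902 and 2737 at CT2, lower in every CT2 profile, and 4 of the 5 markers tested had differences below 0. The part of cells with Ighm in the result for Cxcr4 was not tested.

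Further genes that rose encode enzymes, transporters and regulators. Csdc2, an RNA-binding cold shock domain protein, read 266, 333 and 390 against 571, 611 and 486 (0.68 ± 0.12; limma, adjusted p = 0.0478). Htra3, a secreted protease, read 1393, 1958 and 2021 against 2796, 2720 and 2968 (0.66 ± 0.11, adjusted p = 0.0427). Vnn1, a pantetheinase of coenzyme A turnover, read 617, 564 and 661 against 911, 915 and 915 (0.54 ± 0.09, adjusted p = 0.0409). The rule for named genes asked for profiles without overlap, so their separation is no added support. In Csdc2 the highest CT22 and lowest CT2 values were 390 and 486. Tmem86a, which breaks down lysoplasmalogens, rose by 0.58 ± 0.10, the mitochondrial aspartate-glutamate carrier Slc25a13 by 0.52 ± 0.08, the homeodomain factor Pbx3 by 0.51 ± 0.07 and Txndc16, a thioredoxin domain protein, by 0.43 ± 0.08 (adjusted p between 0.0211 and 0.0478).

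Gstm2, a glutathione transferase, read 3864, 4936 and 4836 at CT22 and 6300, 6436 and 6347 at CT2 (0.49 ± 0.08; limma, adjusted p = 0.0337). Its family member Gstm7 rose by 0.41 ± 0.06 (adjusted p = 0.0211), but mu-class glutathione transferases are close in sequence and their probes may share signal. Gstm7 is outside the rule for named genes, as are the corepressor Cbfa2t3 (0.40 ± 0.07), the lysosomal transporter Slc49a4 (0.43 ± 0.06), the ephrin Efnb1 (0.35 ± 0.06) and the ubiquitin ligase Rnf130 (0.30 ± 0.05), which rose and were chosen after their values were seen.

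Other probe sets gave a second reading of 16 of the 33 genes. Of 22 such probe sets, 18 had the direction of the call, 14 of them at an unadjusted p under 0.05 (63.6%, against 15.5% in either direction among 9127 other probe sets of genes not called). Idi1 gave -1.10 ± 0.12 on its second probe set, Npr3 0.81 ± 0.10, Vnn1 0.58 ± 0.10 and Pbx3 0.42 ± 0.07. They did not all follow: the other probe set of Fdps gave -0.18 ± 0.13, the other probe sets of Hsd17b7 gave -0.06 to -0.47, and those of Htra3, Rnf130 and Gbf1 lay on the other side of 0, none at an unadjusted p under 0.05. A probe set is another measure of the same RNA and not a replicate.

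The arrays of circadian times 6 and 14 stand outside the difference of CT2 and CT22, although they share the estimate of the spread. All 17 genes that rose across dawn had a higher mean at CT6 than at CT14, against 48.4% of all genes, and all 16 that fell had a lower mean at CT6 than at CT14, against 51.5%. The sizes ran from -2.29 for Cry1 and 1.21 for Myo1a down to values within the spread of the profiles, 0.0031 for Txndc16, 0.006 for Slc49a4 and -0.06 for Spata18, so for these 3 the sign is within the replicate error. The median was -1.22 for the genes that fell and 0.42 for those that rose. Cry1 averaged 9.81 at CT14, 9.86 at CT22, 8.75 at CT2 and 7.52 at CT6 on the log2(signal + 51) scale. Sqle averaged 11.06 at CT14, 10.88 at CT22, 9.92 at CT2 and 9.59 at CT6. Both stood at a similar level in early and late night and lower on each morning time. Of the 17 cholesterol synthesis enzymes, 16 had a lower mean at CT6 than at CT14, and Tm7sf2 did not.

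Genes that rose took more than one course. Cxcr4 averaged 10.87 at CT14, 9.99 at CT22, 11.10 at CT2 and 11.15 at CT6, so that CT22 was its lowest of these times. Npr3 averaged 9.92 at CT14 and 9.92 at CT22, 10.82 at CT2 and 10.44 at CT6. Myo1a averaged 7.71, 8.12, 9.10 and 8.92 in the same order, lowest in the early night.

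**Figure D4:**
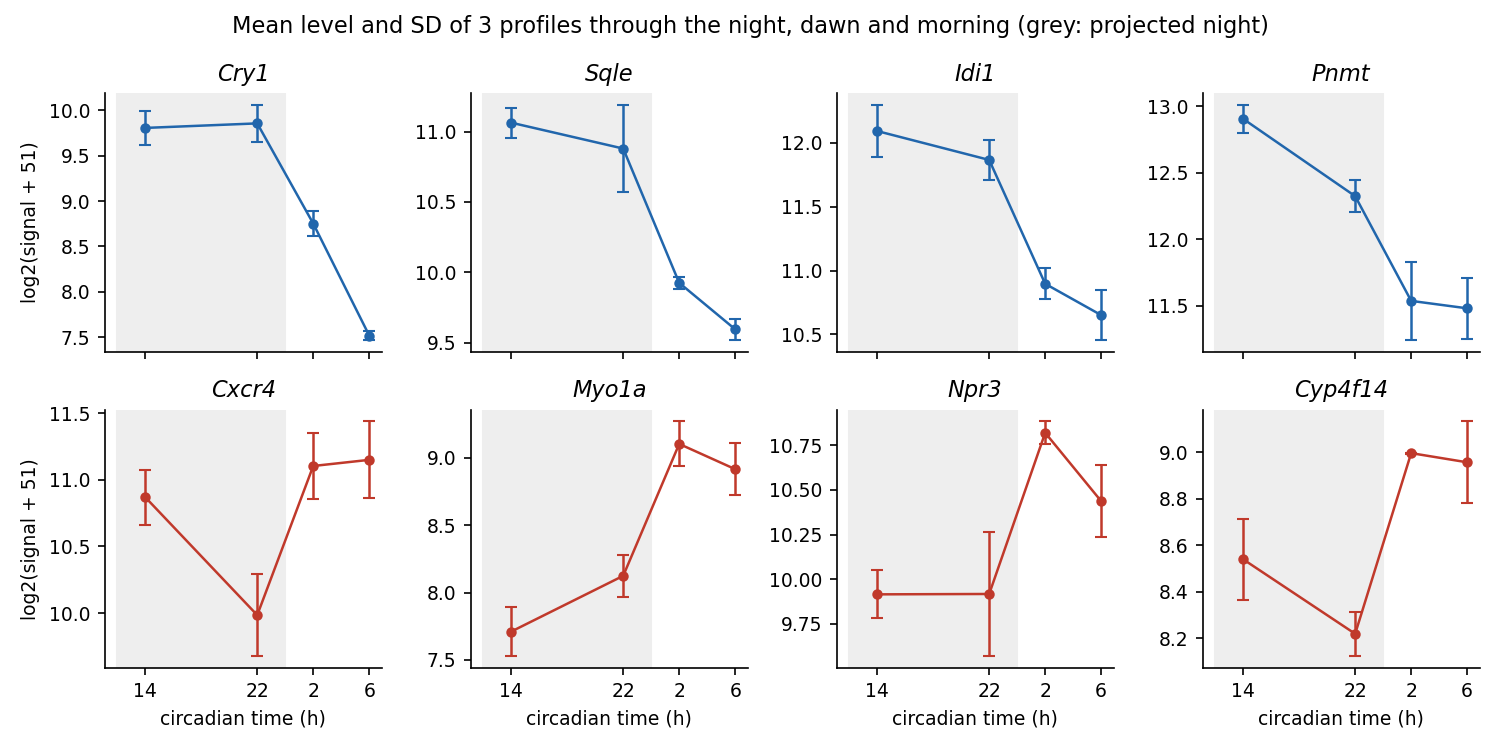
Mean level (points, log2(signal + 51)) and SD (bars) of 3 profiles at circadian times 14, 22, 2 and 6 for 4 genes that fell across dawn (blue) and 4 that rose (red), with the projected night in grey. Cry1 drops from 9.86 at CT22 to 8.75 at CT2 and 7.52 at CT6, whereas Cxcr4 climbs from 9.99 to 11.10 and stays there at 11.15.

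Immediate early genes, which answer within minutes to nerve and hormone signals, did not pass, 0 of 32 (0.238% of all genes did). However, 14 were higher and 4 lower at an unadjusted p under 0.05, against 9.29% and 6.28% of all genes. The median difference was 0.14, and in 8 genes every CT2 profile lay above every CT22 profile (background 12.4%). Fos read 210, 334 and 148 at CT22 and 742, 743 and 761 at CT2, a clear gap with a wide spread at CT22 (1.56 ± 0.36; limma, adjusted p = 0.0904). Egr1 read 502, 1004 and 799 against 2159, 2153 and 863, so that the lettered mean of CT2 lay among the CT22 values (1.06 ± 0.38, adjusted p = 0.216). The count of 14 became 9 without the 38 h profile, 6 without the 62 h profile and 7 without the 58 h profile.

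Of 17 genes known to respond to glucocorticoids, 0 passed (0.238% of all genes did), with a median difference of 0.22. At an unadjusted p under 0.05, 5 were higher and 0 lower, against 9.29% and 6.28% of all genes. Heat shock proteins and co-chaperones, known to follow body temperature, gave 0 of 34, with 4 higher and 6 lower at an unadjusted p under 0.05. In named members, Hspa8 differed by -0.02 ± 0.03 (limma, adjusted p = 0.857), Hsph1 by 0.08 ± 0.09 (adjusted p = 0.691) and Hsp90aa1 by -0.16 ± 0.05 (adjusted p = 0.159). Cirbp, a cold-inducible RNA-binding protein, read 591, 621 and 1161 against 910, 1069 and 1112, overlapping through the lettered mean of CT22 (0.42 ± 0.21, adjusted p = 0.35). Without that lettered mean its difference was 0.715 and passed (adjusted p = 0.0361), in a setting that called 219 genes against 33 in the main fit.

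**Figure D5:**
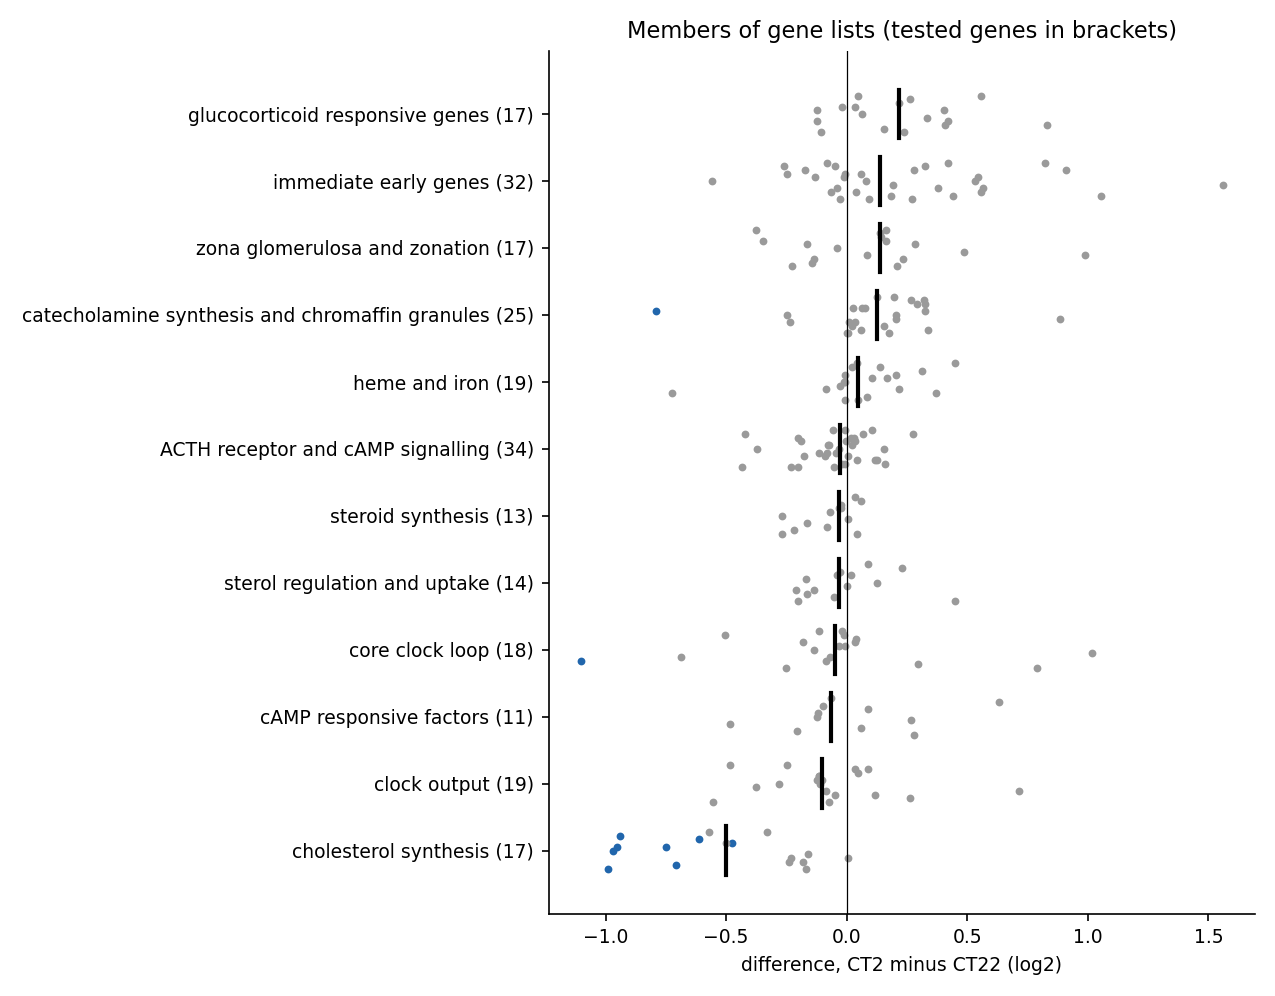
Difference between CT2 and CT22 on the log2 scale (x axis) for the tested members of 12 gene lists (y axis); each point is a gene, blue marks genes that fell with an adjusted p under 0.05, and the black bar is the median of the list. Cholesterol synthesis stands at a median of -0.50 with 8 blue points, and Cry1 and Pnmt are the single blue points of the clock loop and the catecholamine list.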

How the data were processed

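The deposited values are probe set intensity values on a linear scale, taken here as the authors deposited them; no summary method or scaling is given in the sources used here. Members and gene lists were chosen with earlier results of these data known. Columns of one circadian time whose values above 50 agreed within 5% were averaged, which gave 3 profiles per time. Probe sets were named from the platform's annotation (34945 of 45101 had 1 gene symbol). After a filter at the 40th percentile of the mean (a signal of 183), the brightest probe set stood for each gene. With limma 3.58.1 in R 4.3.3, a linear model with 4 circadian times (2, 6, 14 and 22, 12 profiles) and eBayes with trend was fitted to log2(intensity + 51), and the contrast of CT2 minus CT22 was adjusted over 13880 genes by Benjamini-Hochberg at 0.05; the script was tested on simulated data. Circadian times 10 and 18 were left out because control probe sets stand apart there. Fold changes are on the log2(intensity + 51) scale. Named genes are the 12 largest non-overlapping calls in each direction, all clock loop genes tested, up to 4 calls of each other list and a fixed set (Dbp, Tef, Nfil3, Star, Cyp11a1, Cyp11b1, Mc2r, Nr5a1, Sqle, Cirbp, Hspa8, Hsp90aa1, Hsph1, Th, Fos and Egr1). Genes of lists without calls named beside these were chosen after their values were seen. Alternatives changed the offset, filter, probe set, samples, near-copies, normalization, variance model and profiles. Motifs were searched and figures drawn with Python 3.11.15, pandas 2.3.3 and matplotlib 3.10.9.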

Additional observations from a re-analysis of the deposited data

How the results depend on the processing

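The profiles of all 33 genes do not overlap, so most alternatives could not turn their direction, and its stability there is no support. The main counts of 17 genes higher and 16 lower were unchanged with an offset of 1. Without the filter 11 were higher. With all probe sets tested, 28 were higher, with quantile normalization 39, and with arrays centred on the median 72 higher and 23 lower, so the share of higher calls depends on the scaling. Without trend in eBayes, 7 were higher and 10 lower; the cause of these shifts was not tested. With only the 6 profiles of CT2 and CT22, 0 were higher and 0 lower, although 2081 genes had an unadjusted p under 0.05. All columns taken as independent, which counts near-copies as samples, gave 533 higher and 413 lower, and the same columns with the unlettered and lettered set as a replicate block gave 613 and 445. Leaving out 1 profile gave 0 to 177 higher and 0 to 55 lower. The 8 cholesterol synthesis calls became 5 with all 18 profiles and 0 with only the 6. The 6 profiles with a replicate block of 3 sets, added after the data were seen, gave 0 higher and 0 lower (1687 at an unadjusted p under 0.05). The profiles were not treated as pairs, since deviations of same-numbered profiles had correlations of -0.168, -0.13 and -0.0286. With 3 profiles per time an exact permutation test cannot go below 0.1, so every call rests on the spread shared over 12 profiles.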

Other observations

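Genes of the outer cortex and its renewal gave 0 calls in 17 (limma), where 0.238% of all genes were called. At an unadjusted p under 0.05, 4 were higher and 3 lower, against 9.29% and 6.28% of all genes. Shh, the hedgehog signal made by capsule-near cortical cells, read 991 at 58 h, 1713 at 82 h and 2516 in the lettered mean of CT22, and 3454 at 38 h, 3633 at 62 h and 2806 in the lettered mean of CT2 (0.99 ± 0.28, adjusted p = 0.137). Lgr5, a receptor that strengthens Wnt signals, read 449, 616 and 680 against 764, 864 and 851 in the same order (0.49 ± 0.12, adjusted p = 0.0995). Both lay higher in every CT2 profile without passing. Agtr1a, the angiotensin receptor of the aldosterone-making zone, lay lower in every CT2 profile (-0.23 ± 0.07, adjusted p = 0.153), and Cyp11b2, the aldosterone synthase, overlapped (-0.16 ± 0.08, adjusted p = 0.332).

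The gene with the largest difference of all, Cited1, a transcriptional coregulator, was not called: it read 102, 413 and 452 at CT22 and 1495, 1612 and 815 at CT2 (1.99 ± 0.41, adjusted p = 0.0681). It was picked after its values were seen. Among large complexes, 68 of 78 respiratory chain genes had differences below 0, against 49.2% of all genes, with a median of only -0.07 and 0 calls (1 higher and 5 lower at an unadjusted p under 0.05). Of 43 cytosolic ribosomal protein genes, 0 were called and 0 had an unadjusted p under 0.05. Of 18 mitosis genes, 16 had differences below 0, with a median of -0.16 and 0 calls. At an unadjusted p under 0.05, 0 were higher and 2 lower. Among all genes, 9.29% were higher and 6.28% lower at that threshold, and 0.238% were called.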
